A study of Mus musculus with 12 samples.

Results

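The Cyp4a genes and Cyp4f14 code for cytochrome P450 fatty acid omega-hydroxylases, and 7 of them were followed here: Cyp4a10, Cyp4a12a, Cyp4a12b, Cyp4a14, Cyp4a31, Cyp4a32 and Cyp4f14. They were taken by gene symbol from the 48526 gene rows of the deposited expression table, and 7 of the 7 were also among the 11968 genes that exceeded 1 CPM (the reads of a gene relative to all reads of its library) in at least 6 livers. RNA came from whole livers of adult C57BL/6J mice without genetic modification. Females and males ate either chow or chow with simvastatin at 0.1 g/kg for 4 weeks, which gave 4 groups of 3 livers and 12 livers in all. The study's methods give that dose per kg of diet and work out the intake from the food eaten. The sample labels give it per kg of body weight. Simvastatin is a cholesterol-lowering drug of the statin class.

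These enzymes sit in the endoplasmic reticulum and add a hydroxyl group to the terminal (omega) carbon of a fatty acid, which alcohol and aldehyde dehydrogenases then oxidize to a dicarboxylic acid that peroxisomes shorten. In rodent liver, Cyp4a10 and Cyp4a14 are classical targets of PPAR-alpha, a nuclear receptor activated by fatty acids. Cyp4a12a and Cyp4a12b are known as male-biased genes under androgen and growth hormone control, and their enzymes hydroxylate arachidonic acid. Cyp4f14 belongs to a separate subfamily whose enzymes inactivate leukotriene B4 and hydroxylate long-chain fatty acids and vitamin side chains.

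In GRCm38 (GENCODE vM21), 6 of the genes formed a cluster on chromosome 4 between 115299046 and 115621602, a span of 323 kb. Their order was Cyp4a12a (115299046 to 115332815), Cyp4a12b (115411624 to 115439034), Cyp4a14 (115486200 to 115496142), Cyp4a10 (115518264 to 115533649), Cyp4a31 (115563649 to 115579015) and Cyp4a32 (115600969 to 115621602). Cyp4a14 lay on the minus strand and the other 5 on the plus strand. Cyp4f14 was on chromosome 17 (32905070 to 32917342, minus strand). All 7 were protein-coding genes of 12 or 13 exon blocks, and Cyp4a12b overlapped Gm12837, a processed pseudogene on the opposite strand.

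The stretch of coding sequence around the cysteine that binds the heme iron shows how alike the family is. It is printed 5′ to 3′ from the GENCODE vM21 transcripts, with the cysteine codon in capitals, at coding bases 1345 to 1374 in Cyp4a10, Cyp4a31 and Cyp4a32 (1342 to 1371 in Cyp4a12a and Cyp4a12b, 1339 to 1368 in Cyp4a14, and 1381 to 1410 in Cyp4f14).
Cyp4a10, identical in Cyp4a31 and Cyp4a32: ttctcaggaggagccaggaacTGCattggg
Cyp4a12a, identical in Cyp4a12b: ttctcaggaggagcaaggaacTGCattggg
Cyp4a14: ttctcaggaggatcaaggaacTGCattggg
Cyp4f14: ttctcggcgggacccaggaacTGCatagga

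Over these 30 bases, Cyp4a10 differed from Cyp4a12a at 1 base, from Cyp4a14 at 2 and from Cyp4f14 at 6. Over the whole coding sequence, Cyp4a12a and Cyp4a12b were 98.5% identical, differing at 23 of 1524 bases. Cyp4a10 was 97.2% identical to Cyp4a32 and 96.6% to Cyp4a31, but 76.1% to Cyp4a14 and 60.5% to Cyp4f14.

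The copies can be told apart by reads only where they differ, so the 90 coding bases with the most differences are shown, with the differing bases in capitals. Between Cyp4a12a and Cyp4a12b these are coding bases 661 to 750, with 7 differences.
Cyp4a12a: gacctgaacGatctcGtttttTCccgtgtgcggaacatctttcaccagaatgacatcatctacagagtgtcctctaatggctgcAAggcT
Cyp4a12b: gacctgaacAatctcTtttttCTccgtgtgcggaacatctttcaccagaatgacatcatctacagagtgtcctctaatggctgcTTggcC

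Among Cyp4a10, Cyp4a31 and Cyp4a32 they are coding bases 190 to 279, where 13 of the 77 differing positions of 1527 fall.
Cyp4a10: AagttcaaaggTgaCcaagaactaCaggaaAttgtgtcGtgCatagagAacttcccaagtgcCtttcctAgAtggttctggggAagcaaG
Cyp4a31: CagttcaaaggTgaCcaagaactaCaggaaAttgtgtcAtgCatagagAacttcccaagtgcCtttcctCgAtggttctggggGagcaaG
Cyp4a32: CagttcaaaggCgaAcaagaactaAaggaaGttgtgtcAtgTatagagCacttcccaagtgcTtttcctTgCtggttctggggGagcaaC

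Outside such stretches a read can match more than 1 gene. Of all 50-base windows along the longest coding transcript, 48.9% of those of Cyp4a12a and 49.4% of those of Cyp4a12b were also found in the other. The share found in any other gene was 46.8% for Cyp4a32, 30.5% for Cyp4a10 and 21.8% for Cyp4a31, against 0.245% for Cyp4a14 and 2.72% for Cyp4f14. How reads that matched several genes were counted is not given in the sources used here, so values that separate Cyp4a12a from Cyp4a12b, or Cyp4a10 from Cyp4a31 and Cyp4a32, are uncertain to that extent, and the reads of each set were also summed.

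The libraries held 46066381 to 60419223 reads assigned to genes, more than the mean depth that the study states, and whether the mates of a pair were counted separately is not given. Xist was at 214 to 691 CPM in the 6 livers labelled female and at 0.557 to 0.929 CPM in the 6 labelled male, and Ddx3y, on the Y chromosome, was at 0.210 to 0.414 CPM in the former and 60.3 to 74.6 CPM in the latter. The summed level of 6 hepatocyte markers was 75013 to 154163 CPM per liver. Kidney proximal tubule also expresses Cyp4a genes. Of 4 markers of it, Kap, Slc34a1 and Slc5a2 were below 0.0651 CPM in every liver, the level of 3 reads in the smallest library. The sum of the 4, which rests mainly on Lrp2, was 0.0359 to 0.287 CPM in females, 0.149 to 0.526 CPM in males on chow and 0.522 to 1.25 CPM in males on statin.

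Levels of the 7 genes within a liver were compared per kb of exon. The annotated exons of Cyp4a32 (1536 bases) hold almost no UTR, unlike those of the other 6 (2109 to 2601 bases), so its value per kb is less certain. In females on chow, Cyp4a14 stood at 170 ± 52.0 CPM per kb (SD, n = 3) and Cyp4a10 at 138 ± 50.3, followed by Cyp4f14 at 80.3 ± 10.8, Cyp4a32 at 11.5 ± 3.04 and Cyp4a31 at 3.15 ± 0.769. Cyp4a12a (0.412 ± 0.124) and Cyp4a12b (0.0759 ± 0.0174) were the least abundant in that group. The group means of Cyp4a14 and Cyp4a10 lay within 1 SD of each other, while the other neighbours in this order were further apart than the larger of their SDs.

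In males on chow, the order began with Cyp4a10 at 206 ± 54.7 CPM per kb and Cyp4a14 at 183 ± 26.8, which did not differ beyond their SDs. Cyp4f14 followed at 131 ± 2.05, Cyp4a12a at 72.8 ± 13.9, Cyp4a12b at 33.1 ± 7.47, Cyp4a32 at 14.6 ± 0.825 and Cyp4a31 at 3.71 ± 0.931. Most of the transcript pool of both sexes on chow was thus Cyp4a10, Cyp4a14 and Cyp4f14, and the male pool also held the Cyp4a12 pair.

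**Figure D1:**
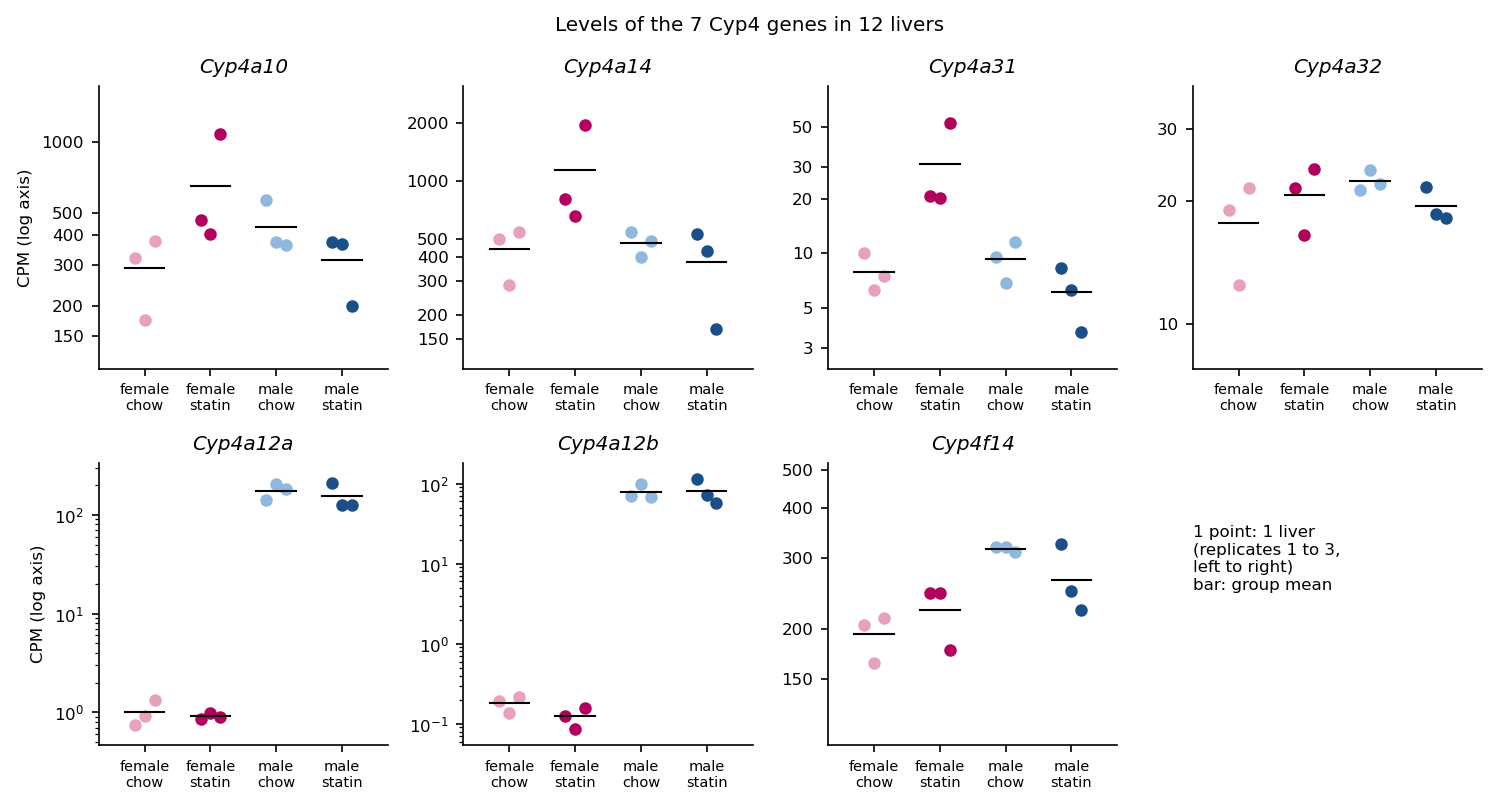
Level of each gene in each liver, in CPM on a log axis, by sex and diet, with 3 livers (points) and the mean (bar) per group. Cyp4a10, Cyp4a14 and Cyp4a31 were higher in the 3 female statin livers than in the 3 female chow livers, and Cyp4a12a and Cyp4a12b were near 0 in the females.

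Statin against chow in females asks which omega-hydroxylase genes respond to the drug in that sex, as the next comparison does in males. Cyp4a10 was at 319, 174 and 380 CPM in the 3 chow livers and at 463, 405 and 1079 CPM in the 3 statin livers. The groups did not overlap, and replicate 3 on statin stood far above the other 2. The log2 fold change was 1.16 ± 0.40 (SE), a 2.23-fold difference with an adjusted p of 0.312 (edgeR quasi-likelihood test, Benjamini-Hochberg over all 11968 genes).

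Cyp4a14, the neighbour of Cyp4a10 on the opposite strand, was at 499, 287 and 539 CPM on chow and at 807, 655 and 1934 CPM on statin. All 3 statin livers again exceeded all 3 chow livers, with replicate 3 the highest. Its log2 fold change was 1.36 ± 0.45, or 2.56-fold (edgeR adjusted p = 0.287).

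Cyp4a31, a less abundant copy of Cyp4a10, was at 10.03, 6.26 and 7.44 CPM on chow and at 20.7, 20.1 and 52.6 CPM on statin. The lowest statin liver was above the highest chow liver, and the fold difference was the largest among the 7 genes. The log2 fold change was 1.98 ± 0.40, or 3.93-fold (edgeR adjusted p = 0.0956).

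The remaining members showed no such separation. Cyp4a32, the closest copy of Cyp4a10 and the one with which it shares most 50-base windows (25%), was at 19.0, 12.5 and 21.5 CPM on chow and 21.5, 16.5 and 23.9 CPM on statin, with a log2 fold change of 0.23 ± 0.19 (edgeR adjusted p = 0.809). Cyp4f14 was at 204, 165 and 214 CPM on chow and 246, 247 and 177 CPM on statin, with a log2 fold change of 0.20 ± 0.18 (edgeR adjusted p = 0.820). The groups overlapped for both. Cyp4a12a was at 0.745 to 1.33 CPM in the 6 female livers and Cyp4a12b at 0.0870 to 0.218 CPM, the latter from 5 to 10 reads a liver, and neither passed the test (-0.12 ± 0.29 and -0.55 ± 0.53).

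At an adjusted p under 0.05, 0 of the 7 genes were called in females by edgeR, while 0.1% of all genes tested were. At an unadjusted p under 0.05 there were 3 of 7 (Cyp4a10, Cyp4a14 and Cyp4a31), against 10.5% of all genes, and the same 3 had groups that did not overlap, against 12% of all genes. DESeq2 called 1 member, Cyp4a31, at an adjusted p of 0.000137, and 2.26% of all genes (270), and limma on log2(CPM + 1) called 0. Female statin replicate 3 set much of the size of these differences: without it the log2 fold changes were 0.59 for Cyp4a10, 0.74 for Cyp4a14 and 1.38 for Cyp4a31 (edgeR adjusted p = 0.860, 0.810 and 0.246). Only Cyp4a31 then passed at an unadjusted p under 0.05, so that the count went from 3 to 1, and over all genes from 1256 to 800. Without female chow replicate 2 the counts were 2 and 856. Without female statin replicate 1 or 2, Cyp4a31 passed the threshold, at adjusted p of 0.0424 and 0.0350. The summed level of 4 lymphoid markers was 14.1 to 18.0 CPM in female chow livers and 20.3 to 26.4 CPM in female statin livers, and the 1 of them tested passed at an unadjusted p under 0.05. That of 6 hepatocyte markers was 98874 to 133466 and 114675 to 154163 CPM, and 2 of the 6 passed at an unadjusted p. The part of either in the Cyp4a differences was not tested.

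In males, none of the 7 genes passed the test for a statin difference. Cyp4a10 was at 568, 374 and 363 CPM on chow and 375, 368 and 201 CPM on statin, with a log2 fold change of -0.47 ± 0.40 (edgeR adjusted p = 1.00). Cyp4a14 was at 541, 402 and 485 CPM on chow and 529, 432 and 169 CPM on statin (-0.34 ± 0.44). Replicate 3 on statin was the lowest male liver for both, and without it the value for Cyp4a14 was 0.01.

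Cyp4a31 was at 9.56, 6.86 and 11.5 CPM in the male chow livers and at 8.27, 6.23 and 3.68 CPM in the male statin livers, a log2 fold change of -0.62 ± 0.39 (edgeR adjusted p = 1.00). Cyp4f14 was at 320, 320 and 312 CPM on chow and 325, 249 and 223 CPM on statin (-0.26 ± 0.18), and Cyp4a32 at 21.3, 23.8 and 22.1 CPM on chow and 21.7, 18.6 and 18.2 CPM on statin (-0.20 ± 0.19). In each of these the groups overlapped. Cyp4a12a gave -0.19 ± 0.23 and Cyp4a12b 0.04 ± 0.23 at levels of 126 to 212 and 57.3 to 114 CPM.

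By edgeR, 0 members were called in males at an adjusted p under 0.05, as were 0% of all genes. At an unadjusted p there were 0 members, against 1.96% of all genes, and 0 had groups that did not overlap, against 7.95%. DESeq2 and limma also called 0 members. Without male statin replicate 1, Cyp4a12a (-0.48) and Cyp4f14 (-0.43) passed at an unadjusted p under 0.05, with an adjusted p of 0.730 for both, as did 703 of all 11968 genes, against 234 with all livers.

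**Figure D2:**
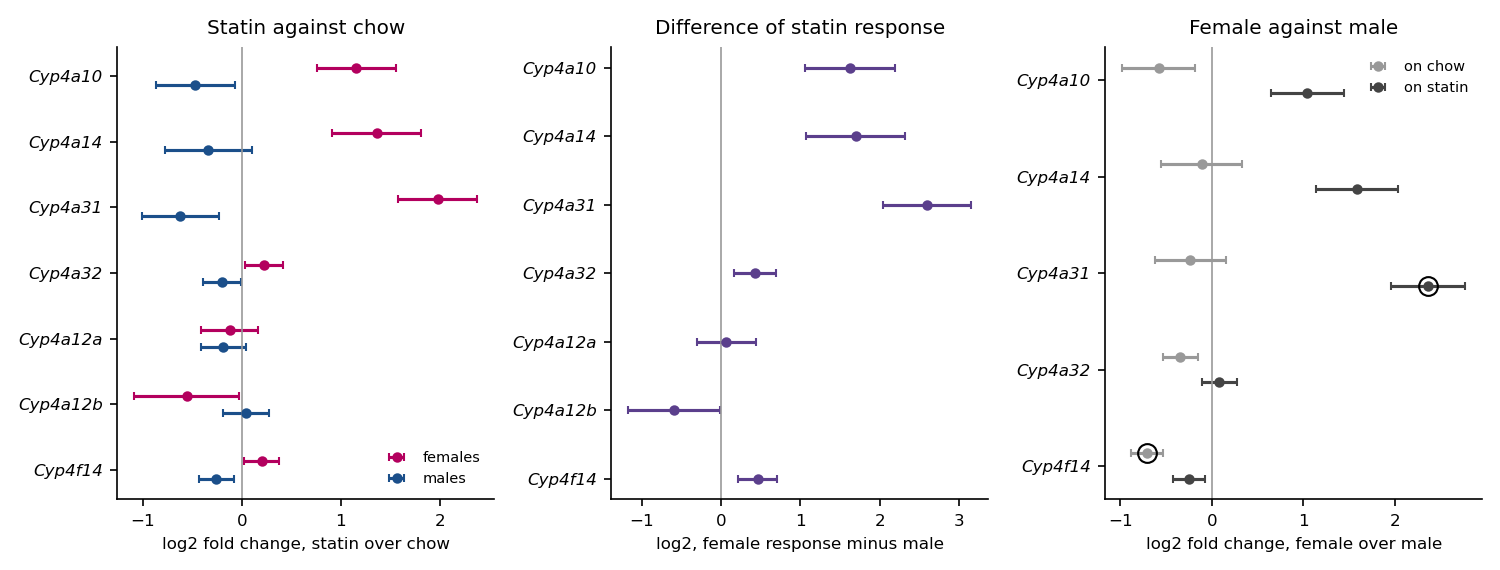
Log2 fold change with its SE for each gene in the statin comparison within each sex (left), for the female minus the male response (middle) and for female over male on each diet (right, without Cyp4a12a and Cyp4a12b, which lie beyond the axis). Black rings mark an adjusted p under 0.05 (edgeR): Cyp4a31 on statin and Cyp4f14 on chow, in the right panel.

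The difference of the statin responses, female minus male, tests the sex dependence directly. It was 1.62 ± 0.56 (log2, SE) for Cyp4a10, 1.69 ± 0.63 for Cyp4a14 and 2.59 ± 0.55 for Cyp4a31, with edgeR adjusted p of 0.449, 0.483 and 0.240. For Cyp4f14 it was 0.46 ± 0.25, for Cyp4a32 0.43 ± 0.27, for Cyp4a12a 0.06 ± 0.37 and for Cyp4a12b -0.59 ± 0.58. None of the 7 passed at an adjusted p (0% of all genes did), and 3 of 7 did at an unadjusted p under 0.05, against 8.01% of all genes. DESeq2 called Cyp4a31 (adjusted p = 0.00129) and 1.02% of all genes, and limma called 0 members. Without female statin replicate 3, the values were 1.06, 1.08 and 2.00 for Cyp4a10, Cyp4a14 and Cyp4a31.

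Females and males on chow differed most in the Cyp4a12 pair. Cyp4a12a was at 0.745, 0.916 and 1.33 CPM in the female chow livers and at 140, 207 and 182 CPM in the male chow livers. The sexes were far apart, with a log2 fold change, female over male, of -7.47 ± 0.31, that is 177-fold lower in females (edgeR adjusted p = 1.54e-08). Cyp4a12b was at 0.191, 0.136 and 0.218 CPM in females, or 7 to 10 reads, and at 70.8, 99.7 and 67.1 CPM in males (-8.76 ± 0.36). Both genes exceeded 1 CPM in 6 livers only through the males, so among the genes tested they had to differ, and their calls are given as a description. With the reads of both summed, the log2 fold change was -7.76 ± 0.31.

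Cyp4f14 was also lower in females on chow, at 204, 165 and 214 CPM against 320, 320 and 312 CPM. The sexes did not overlap, and the log2 fold change was -0.71 ± 0.18, or 1.64-fold lower in females (edgeR adjusted p = 0.0243). The call was lost without female chow replicate 1 or 2 or any 1 male chow liver, at adjusted p of 0.0582 to 0.0985, with log2 fold changes of -0.61 to -0.76. Cyp4a10 (-0.58 ± 0.40), Cyp4a32 (-0.34 ± 0.19), Cyp4a31 (-0.23 ± 0.39) and Cyp4a14 (-0.11 ± 0.44) did not pass. Of the 5 members other than the Cyp4a12 pair, 1 was called on chow, against 10.4% of all genes. The same gene, Cyp4f14, was the 1 of 5 that passed at an unadjusted p under 0.05 (24.9% of all genes) and whose groups did not overlap (37.7% of all genes).

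On statin, Cyp4a31 was higher in females. It was at 20.7, 20.1 and 52.6 CPM in females and 8.27, 6.23 and 3.68 CPM in males, with no overlap and a log2 fold change, female over male, of 2.36 ± 0.40, or 5.14-fold higher in females (edgeR adjusted p = 0.00415). The call remained without female statin replicate 3 (1.76, adjusted p = 0.00679), and it was lost when the reads of Cyp4a10, Cyp4a31 and Cyp4a32 were summed (1.04, adjusted p = 0.150), a sum that Cyp4a10 dominates. Cyp4a14 was 3.00-fold higher in females (1.59 ± 0.45, edgeR adjusted p = 0.0595) and Cyp4a10 2.06-fold higher (1.04 ± 0.40, edgeR adjusted p = 0.162), again without overlap. Without female statin replicate 3 the log2 fold changes were 0.96 for Cyp4a14 and 0.47 for Cyp4a10.

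Cyp4f14 and Cyp4a32 did not pass the test between the sexes on statin (-0.25 ± 0.18 and 0.08 ± 0.19). Cyp4a12a was at 0.861, 0.975 and 0.894 CPM in female statin livers and at 212, 127 and 126 CPM in male statin livers (-7.41 ± 0.31), and Cyp4a12b was at 0.126, 0.0870 and 0.159 CPM against 114, 72.5 and 57.3 CPM (-9.35 ± 0.37). The Cyp4a12 pair again entered the test only through the males. Of the other 5 genes, 1 was called on statin (6.28% of all genes), and 3 passed at an unadjusted p under 0.05 (19.4% of all genes) and had groups that did not overlap (19.6% of all genes). The chow and statin comparisons of the sexes used different livers, but each shared its livers with the comparisons of diet. Markers of other liver cells differed by sex as well. On chow, where Cyp4f14 was called, the summed levels in female and male livers were 401 to 491 and 210 to 319 CPM for 5 Kupffer cell (liver macrophage) markers, and 216 to 232 and 134 to 182 CPM for 5 endothelial markers. They were 302 to 367 and 198 to 214 CPM for 5 stellate cell markers, and 30.8 to 48.2 and 26.2 to 30.2 CPM for 5 cholangiocyte markers, so that none of these 4 overlapped. On statin, Kupffer cell (352 to 617 against 210 to 262 CPM) and endothelial markers (177 to 244 against 142 to 176 CPM) did not overlap, while stellate cell (242 to 345 against 189 to 250 CPM) and cholangiocyte markers (19.0 to 51.7 against 21.2 to 31.7 CPM) did. On statin, hepatocyte markers (114675 to 154163 against 80518 to 93384 CPM) and lymphoid markers (20.3 to 26.4 against 8.63 to 13.6 CPM) were also higher in females without overlap. The part of these in the sex differences was not tested, and fewer cells of a type and less RNA per cell cannot be told apart in whole liver.

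**Figure D3:**
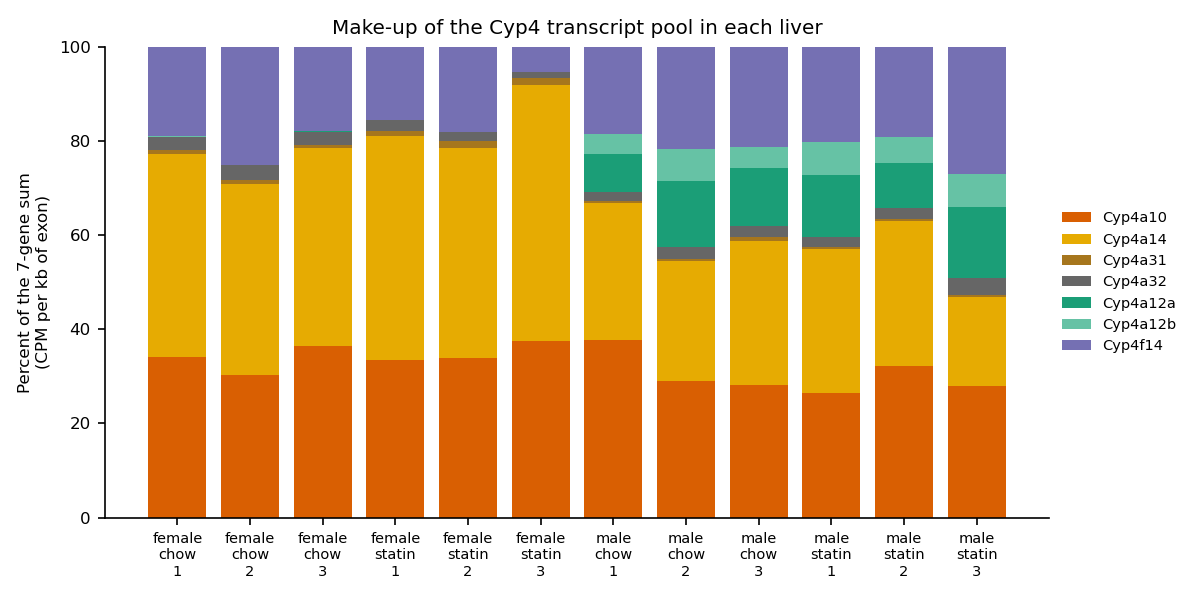
Percent of the summed level of the 7 genes (CPM per kb of exon) held by each gene, as 1 stacked bar per liver. Cyp4a12a held 8.10% to 15.2% in males and at most 0.139% in females, and Cyp4a14 was largest in female statin replicate 3 at 54.5%.

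The summed level of the 7 genes was 403 ± 116 CPM per kb in females on chow and 862 ± 439 on statin (SD, n = 3), and 644 ± 60.7 and 517 ± 165 in males. Per liver it ran from 272 to 493 and from 565 to 1366 CPM per kb in the 2 female groups, which did not overlap, and from 609 to 715 and from 342 to 668 in the male groups, which did. Cyp4a14 held 41.9% ± 1.28 of the pool in females on chow and 48.8% ± 5.10 on statin, against 28.4% ± 2.69 and 26.7% ± 6.66 in males. Cyp4f14 made up 20.6% ± 3.83 in females on chow and 12.99% ± 6.72 on statin, with a low of 5.36% in replicate 3.

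The genes also differed in their ratios to Cyp4a10. In 6 of 6 female livers Cyp4a14 exceeded Cyp4a10 per kb, with a ratio of CPM values of 1.42 to 1.79, and in males the ratio ran from 0.843 to 1.41. Cyp4a31 was 1.95% to 3.596% of the Cyp4a10 level (CPM) in females on chow, 4.47% to 4.96% in females on statin and 1.68% to 3.17% in the male livers, so that the 3 female statin livers stood above the other 9. An exact permutation test of 3 against 3 livers gave p = 0.1 for this ratio between female statin and female chow (two-sided), the smallest p that the design allows, and an adjusted p of 0.217 over 13 such comparisons. The ratio of Cyp4a32 went the other way, from 5.65% to 7.16% of Cyp4a10 on chow to 2.21% to 4.65% on statin in females (exact permutation p = 0.1, adjusted p = 0.217). Cyp4a32 itself averaged 17.6 CPM on chow and 20.6 CPM on statin there, so its ratio was lower because Cyp4a10 was higher. Both ratios were chosen with the values known. Groups of 3 that do not overlap always give an exact permutation p of 0.1, so these p-values add nothing to the ranges.

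**Figure D4:**
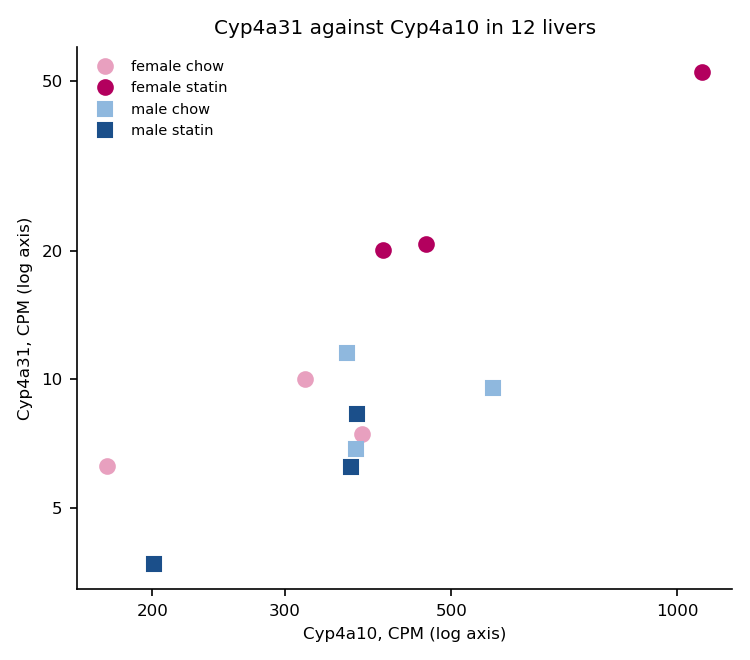
Level of Cyp4a31 against that of Cyp4a10 in the 12 livers, in CPM on log axes. The 3 female statin livers hold 20.1 to 52.6 CPM of Cyp4a31, above the 3.68 to 11.5 CPM of the other 9 livers, also where Cyp4a10 is alike.

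Other genes of the pathway were counted in lists by role. The lists were chosen with earlier results of these data known, so their counts beside the shares of all genes are a description and not a test. PPAR-alpha and 9 of its partners and coregulators gave 0 calls of 10 in females (0.1% of all genes) and 0 in males (0%), and 0 at an unadjusted p under 0.05 in either sex (10.5% and 1.96% of all genes), with median log2 fold changes of 0.08 and 0.0091 against 0.013 and 0.0036 over all genes. Ppara, the receptor itself, averaged 178 ± 33.0 CPM (SD, n = 3) in female chow livers and 238 ± 68.6 CPM in female statin livers (log2 fold change 0.42 ± 0.25, edgeR adjusted p = 0.660), and -0.14 ± 0.25 in males.

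Among 15 other genes known as PPAR-alpha targets, 2 rose in females at an adjusted p under 0.05, as did 0.0836% of all genes, and 12 of 15 were higher at an unadjusted p under 0.05, as were 5.93% of all genes. Their median log2 fold change was 0.79 in females, and -0.19 in males, where 0 were called and 1 was lower at an unadjusted p under 0.05, as were 133 of all 11968 genes. Without female statin replicate 3, 13 of 15 were higher at an unadjusted p under 0.05 (4.09% of all genes), with a median of 0.67, and the 2 calls were lost. Acot1 and Acot2, neighbouring acyl-CoA thioesterase genes of similar sequence, rose by 2.14 ± 0.27 and 1.66 ± 0.22 (log2, SE, edgeR adjusted p = 0.0306 for both). Acot1 went from 13.3 ± 4.36 to 58.8 ± 17.6 CPM (SD, n = 3), and without female statin replicate 3 the values were 1.89 and 1.48 (adjusted p = 0.0784 for both). Over all genes, 0 were called in females without female chow replicate 2, female statin replicate 3, any 1 male chow liver, or male statin replicate 2 or 3. Slc25a20, the mitochondrial carnitine-acylcarnitine carrier, gave 0.94 ± 0.18 (edgeR adjusted p = 0.0951). In males Fgf21, a fasting hormone of the liver, averaged 1.88 ± 0.399 CPM in chow and 1.06 ± 0.128 CPM in statin livers (-0.83 ± 0.33, edgeR adjusted p = 1.00).

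**Figure D5:**
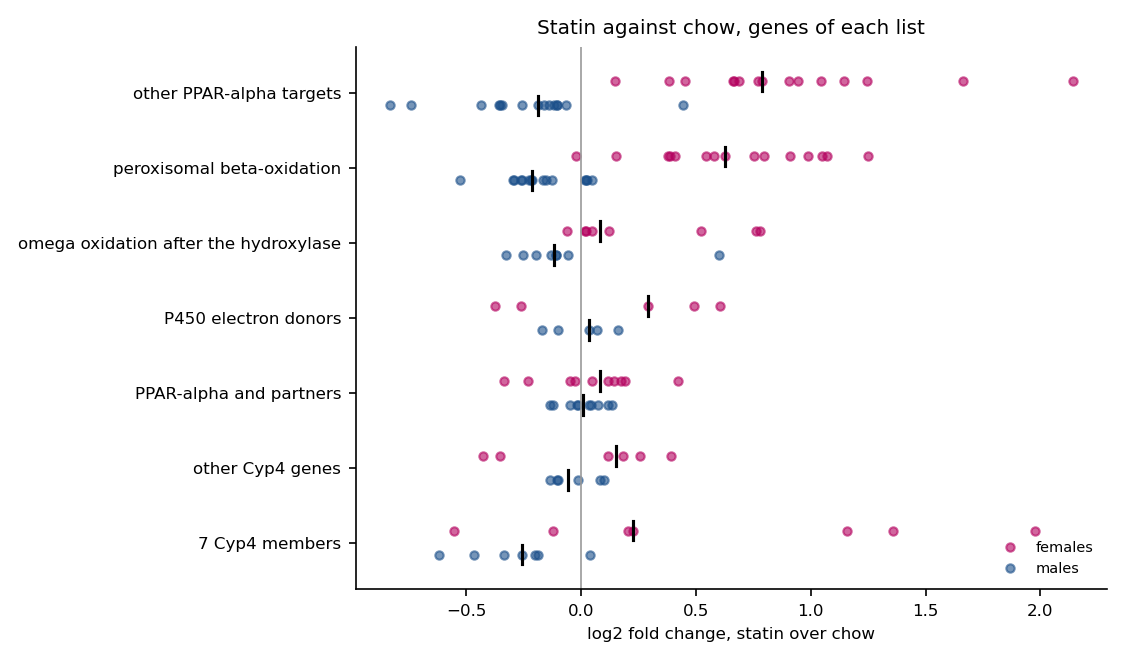
Log2 fold change, statin over chow, of each gene tested in 6 pathway lists and of the 7 Cyp4 genes, in females and in males (points), with the median of each list (black bar). The medians of the PPAR-alpha target list and of the peroxisomal list were 0.79 and 0.63 in females and -0.19 and -0.22 in males.

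Peroxisomal beta-oxidation shortens the dicarboxylic acids that omega-hydroxylation starts. Of its 15 genes, 1 rose in females at an adjusted p under 0.05 (0.0836% of all genes) and 11 were higher at an unadjusted p under 0.05 (5.93% of all genes), with a median log2 fold change of 0.63 (11, against 4.09% of all genes, and 0.58 without female statin replicate 3). In males the median was -0.22, and 0 were called (0% of all genes) or passed at an unadjusted p under 0.05 (1.96%). The gene that passed was Pex11a, which acts in peroxisome division and went from 71.2 ± 4.31 to 141 ± 24.5 CPM (0.99 ± 0.16, edgeR adjusted p = 0.0382). Without female statin replicate 3 it gave 0.93 ± 0.17 (edgeR adjusted p = 0.141). Acot4, a peroxisomal thioesterase, gave 1.07 ± 0.18 (adjusted p = 0.0674), and Abcd2, a peroxisomal fatty acyl-CoA transporter, 0.91 ± 0.19 (adjusted p = 0.0999).

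Alcohol and aldehyde dehydrogenases act after the hydroxylase. Of 8 genes, 0 were called in either sex and 2 were higher in females at an unadjusted p under 0.05 (5.93% of all genes), with medians of 0.08 in females and -0.12 in males. Without female statin replicate 3 that count was 1 (4.09% of all genes). Aldh3a2, the fatty aldehyde dehydrogenase, averaged 321 ± 59.4 CPM in female chow livers and 551 ± 121 CPM in female statin livers (0.78 ± 0.24, edgeR adjusted p = 0.256) and gave -0.33 ± 0.24 in males. Adh4, an alcohol dehydrogenase, gave 0.76 ± 0.29 in females (adjusted p = 0.366).

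Cytochrome P450 enzymes need electron donors, of which Por, the P450 oxidoreductase, averaged 468 ± 112 CPM in female chow livers and 712 ± 283 CPM in female statin livers (log2 fold change 0.60 ± 0.29, edgeR adjusted p = 0.505) and gave -0.10 ± 0.29 in males. Of the 5 donor genes 0 were called in either sex, 1 passed at an unadjusted p under 0.05 in females (10.5% of all genes) and 0 in males (1.96%), and the medians were 0.29 in females and 0.04 in males. Without female statin replicate 3, 0 passed in females at an unadjusted p under 0.05 (800 of all 11968 genes), and the median was 0.15. Cyb5a, cytochrome b5, gave 0.49 ± 0.22 in females (edgeR adjusted p = 0.456).

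Of 16 further Cyp4 genes, 6 were tested, and 0 responded to statin in either sex at an adjusted p under 0.05, with medians of 0.15 in females and -0.06 in males. Cyp4a29 and Cyp4a30b, which lie in the same subfamily, had 0 reads in all 12 livers. At an unadjusted p under 0.05, 1 was higher and 2 were lower in females (10.5% of all genes in either direction), and 0 in males (1.96%). Without female statin replicate 3, 1 was higher and 0 were lower in females (800 of all 11968 genes in either direction), and the median was 0.046. Cyp4f15 averaged 93.8 ± 11.8 CPM in female chow livers and 123 ± 13.2 CPM in female statin livers (0.39 ± 0.14, edgeR adjusted p = 0.312). Between the sexes on chow, 4 of these 6 genes were called (10.4% of all genes). Cyp4f15 was lower in females than in males (-0.54, adjusted p = 0.0249), as was Cyp4f13 (-0.70, adjusted p = 0.0159) and Cyp4v3 (-0.92, adjusted p = 0.0241), the last named after its values were seen, while Cyp4f16 was higher (1.67, adjusted p = 0.000325).

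The 9 male-biased and 11 female-biased liver genes listed were chosen for their sex bias, and several passed the filter only through the high sex, so their sex differences are not counted here. On statin against chow in males, 0 of the 9 male-biased genes were called, 0 passed at an unadjusted p under 0.05 (1.96% of all genes), and the median log2 fold change was 0.03.

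Of 12 genes of growth hormone and androgen signalling, 0 were called on statin in either sex (at an unadjusted p under 0.05, 2 in females against 10.5% of all genes and 1 in males against 1.96%), with medians of 0.10 in females and 0.0049 in males. Stat5a, a transducer of growth hormone signals, gave 0.67 ± 0.15 in females (edgeR adjusted p = 0.110). In males Cux2, a repressor normally seen in female liver, gave 2.04 ± 0.78 (edgeR adjusted p = 1.00) at 2.02 ± 2.16 CPM on statin.

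Likeness between genes was measured as Pearson's r of log2(CPM + 1) deviations from the group means over the 12 livers, among 7641 genes whose mean was 10 CPM or more. Cyp4a10 was most like Retsat (0.946), Cyp4a14 (0.937) and Cyp3a59 (0.889), and Cyp4a14 was most like Dcaf8 (0.958), Cyp4a10 (0.937) and Retsat (0.913). Cyp4a12a was most like Adcy6 (0.916), Bdh1 (0.907) and Prex2 (0.896). Cyp4f14 was most like Brap (0.954), Tor1aip2 (0.946) and Stom (0.926). Within the family, Cyp4a31 followed Cyp4a14 (0.900) and Cyp4a10 (0.805), and Cyp4a12b followed Cyp4a12a (0.806), whereas r was 0.09 between Cyp4a12a and Cyp4a10 and 0.04 between Cyp4f14 and Cyp4a10. The 12 points share their libraries, the highest and lowest livers weigh most, and Cyp4a10, Cyp4a31 and Cyp4a32, like the Cyp4a12 pair, can share reads.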

How the data were processed

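Poly(A) RNA-seq of 12 mouse livers was analysed, grouped by the sex and diet in the sample labels. The submitters' processing notes name STAR 2.4.1a, HTSeq, edgeR 3.28.1 and the GRCm38 build; how a read pair, strand and reads that match several genes were counted is not given in the sources used here. The authors deposited counts for 11968 genes and CPM for 48526 genes. The count table holds the genes over 1 CPM in at least 6 livers. Whole reads recovered from the deposited CPM (100% of values within 0.05 of a whole read) equalled those counts exactly. Totals were 46066381 to 60419223 per liver, and Cyp4a12a and Cyp4a12b in females rested on 39 to 61 and 5 to 10 reads a liver.

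Counts were fitted with edgeR 4.0.16 (R 4.3.3; TMM normalization, quasi-likelihood test, 4 groups in 1 fit, Benjamini-Hochberg over all genes); levels are TMM-scaled CPM. Alternatives were DESeq2 1.42.0, limma 3.58.1 on log2(CPM + 1), other scalings, no filter, each sex or diet alone, a replicate block, summed copies and leaving out each liver. Scripts were tested on simulated data. With 200 of 11968 genes changed by a log2 of 1, edgeR recovered 125 with 6 false calls, and limma 129 with 6. DESeq2 recovered 163 with 27 false calls. Exon lengths and coding sequences came from GENCODE vM21 and alignments from Biopython 1.88. P-values of the main fit rest on the spread between the 3 livers within each group. That spread was pooled over all 4 groups and moderated across genes.

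The members and gene lists were chosen with earlier results of these data known. By rule, the text names the 7 genes, at most 3 genes of a list with the smallest p in each sex, Ppara and Por, and the 3 genes most like each of 4 members. Xist, Ddx3y, Cyp4v3, Cyp4a29 and Cyp4a30b are named outside it, and a gene that the rule names is not reported here. List values without female statin replicate 3 were added after seeing the data.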

Additional observations from a re-analysis of the deposited data

How the results depend on the processing

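Of 683 values of the 7 genes under the alternatives, 652 kept their direction and their side of the threshold, 11 newly passed it, 6 no longer did and 14 changed sign. Many of the 652 could hardly move, so that count overstates stability. Leaving out a liver of 1 sex left the statin log2 fold changes of the other sex almost as they were. A summed value was also entered once for each gene in the sum. In females 0 genes were called, DESeq2 called 1, and leaving out 1 liver gave 0 to 1. The fit without a filter on low counts called 2, and 148 of all 26304 genes it tested. The difference between sexes in statin response gave 0, and 1 with DESeq2 (122 of all 11968 genes) or without the filter (103 of all 26304). On statin 3 genes were called between the sexes (6.28% of all genes), 2 of the 3 being the Cyp4a12 pair that entered the test only through the males. Without the filter 5 were called, and 1021 of all 26304 genes. The cause was not tested. The values that changed sign were within their SE in the reported fit. In females, Cyp4a12a gave 0.14 without female chow replicate 3. In males, Cyp4a14 ranged from -0.66 to 0.015 (without male statin replicate 3), and Cyp4a12b from -0.29 (without male statin replicate 1) to 0.24 when 1 liver was left out, with -0.11 for the copies summed. The difference of responses for Cyp4a12a ranged from -0.11 (without female chow replicate 1) to 0.36 when 1 liver was left out, and was -0.070 with copies summed. For female over male, Cyp4a14 on chow ranged from -0.28 to 0.12 (without female chow replicate 2), and Cyp4a32 on statin from -0.032 (without female statin replicate 3) to 0.21, with -0.0064 for library size alone.

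Over all genes, calls in females were 12 with edgeR, 270 with DESeq2, 148 without the filter (26304 genes tested), 8 with library size alone, 0 with females alone, and 0 to 75 without 1 liver. In males they were 0, and 4 with DESeq2. The difference of responses gave 0, 122 with DESeq2, 103 without the filter (26304 genes tested) and up to 14 without 1 liver. On chow there were 1250 sex differences, 1946 with DESeq2, 2151 with chow livers alone and 635 to 1586 without 1 liver. On statin there were 751, 1284 with DESeq2, 292 with statin livers alone and 378 to 743 without 1 liver. With library size alone, the share higher in females went from 57.0% to 46.4% on chow and from 69.8% to 52.1% on statin, where the median of all genes moved from -0.012 to -0.10.

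With the replicate number as a block, members called were 0 in females, 0 in males, 3 on chow and 3 on statin, both counts of 3 including the Cyp4a12 pair, and calls over all genes were 5 in females, 901 on chow and 570 on statin, of 11968. The numbers do not pair the livers: deviations of same-numbered livers correlated at -0.11 on average over 18 pairs, of which 5 exceeded 0.1. The difference of responses could not be fitted within 1 sex or diet.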

Other observations

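Gene groups that can vary with the time of collection or with liver zone were also read in these livers. Of 11 clock genes tested, 0 were called on statin in either sex (edgeR), and the median log2 fold change was 0.09 for females and -0.06 for males. At an unadjusted p under 0.05 there were 0 in females (10.5% of all genes) and 1 in males (1.96%), Ciart, which averaged 12.2 ± 2.96 CPM in chow and 20.1 ± 5.27 CPM in statin livers (0.72 ± 0.23, edgeR adjusted p = 1.00). Nr1d1 gave -0.55 ± 0.26 in females (edgeR adjusted p = 0.500).

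Of 8 pericentral hepatocyte genes, the zone in which Cyp4a genes are mainly expressed, 0 were called in either sex (at an unadjusted p under 0.05, 2 in females against 10.5% of all genes and 0 in males against 1.96%), with medians of 0.17 in females and 0.08 in males. Cyp2e1, an ethanol-metabolizing P450, averaged 3365 ± 286 CPM in female chow livers and 5534 ± 1262 CPM in female statin livers (0.72 ± 0.20, edgeR adjusted p = 0.211). Glul, the strictest pericentral marker, gave 0.16 ± 0.18 in females and 0.16 ± 0.18 in males. Of 8 periportal genes, 0 were called (1 in females and 0 in males at an unadjusted p under 0.05, against the same shares of all genes), with medians of -0.20 in females and 0.24 in males. Without female statin replicate 3 the female count at an unadjusted p was 0 (800 of all 11968 genes).

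Among the 11 female-biased genes, 1 rose on statin in females (0.0836% of all genes) and 3 were higher at an unadjusted p under 0.05 (5.93% of all genes). Without female statin replicate 3 the latter count was 1 (4.09% of all genes), and the median log2 fold change went from 0.55 to 0.29. The 1 that rose was Cyp3a16, a female-biased P450, from 56.6 ± 22.8 to 196 ± 60.3 CPM (1.79 ± 0.28, edgeR adjusted p = 0.0382). Without female statin replicate 3 it gave 1.56 ± 0.28 (edgeR adjusted p = 0.141). Several of the 11 were near 0 in males, so no count is given there.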
